A study of Mus musculus with 4 samples.

Results

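The nuclear receptor genes other than that of the glucocorticoid receptor (GR) were examined for GR binding in 33AP1C9 cells. The 45 members are a list of genes by name, which includes the steroid, thyroid hormone, retinoid, vitamin D, lipid-sensing, clock and orphan receptor genes. All 45 matched a protein-coding gene among the 21631 used here. A member was counted as carrying a GR site when the centre of a listed peak lay in its gene span or within 25 kb of it.

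GR was recovered by chromatin immunoprecipitation with a pair of antibodies and sequenced (ChIP-seq). The cells are a mouse mammary epithelial line derived from C127 cells. All of them carry a stably integrated MMTV-pp7 reporter and express a GFP-tagged PP7 coat protein, so each condition shares these modifications. They were kept in hormone-stripped serum and then left untreated, or given 600 nM corticosterone for 1 h or for 12 h, with 1 library per condition. The other sample is an input library, for which no list was used here. Its label gives 600 nM corticosterone for 1 h, whereas the untreated list's header names an untreated input as its control, so the treatment of the input is not settled.

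Nuclear receptors are transcription regulators, most of which have a zinc-finger DNA-binding domain and a domain that binds a small lipophilic ligand. GR binds as a pair to inverted repeats of a TGTTCT-like hexamer. Thyroid hormone, retinoic acid, vitamin D, bile acid and lipid receptors instead pair with a retinoid X receptor on repeats of AGGTCA-like hexamers. Genes of the family are themselves regulated by hormones, and corticosterone is the main natural ligand of GR in rodents.

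The libraries held 79203826 tags (untreated), 90556119 (1 h) and 97749688 (12 h), and the peak lists held 1, 5638 and 2883 peaks. Signal is given as normalised tags, which are the tags in the peak window per 10000000 tags of the library. Both treated lists had been called against the untreated library, so every listed site stood at least 6-fold over it. Intervals on tag ratios cover counting error only and compare libraries, since no condition was repeated and no test across conditions was possible. Wilson intervals on shares treat genes or sites as independent draws, although genes can share a site and a gene can hold several. They do not cover differences between libraries and serve as description only. Expression was not measured, so a site says nothing of the level of the gene near it. Positions are in mm10.

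After 1 h, 15 of the 45 nuclear receptor genes carried a GR site. They were the retinoid receptor genes Rara, Rarb and Rxra, the thyroid hormone and vitamin D receptor genes Thra, Thrb and Vdr, the clock genes Nr1d1 and Rorb, and Nr1h4, Hnf4a, Nr2c2, Nr2f6, Nr4a1, Nr5a1 and Esrrg. After 12 h, 5 of these 15 had a listed site (Hnf4a, Nr1h4, Nr5a1, Rarb and Vdr), and no further member gained one, so that 5 had a site at both times, against 8.73% of all protein-coding genes. In untreated cells 0 of the 45 had a peak, where the whole list held 1 peak. The 1 h share was 33.3% (Wilson 95% interval 21.4 to 47.9%), against 17.1% of all protein-coding genes, and the 12 h share was 11.1% (4.84 to 23.5%), against 9.33%.

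Part of the 1 h difference goes with gene length. The members had a median span of 47.1 kb, against 17.3 kb for all protein-coding genes. When all protein-coding genes were weighted to the members' 5 classes of span length, the share with a peak was 23.1% at 1 h and 13.3% at 12 h, both inside the members' intervals. Per Mb of span and flank, the members held 4.03 gene-to-peak pairs at 1 h and 1.75 at 12 h, against 2.5 and 1.22 for all genes. Among spans under 10 kb, 2 of 8 members carried a 1 h site, against 9.84% of all genes of that class, and among spans of 10 to 30 kb 3 of 10 did, against 14.8%. Spans of 30 to 100 kb gave 6 of 15 members, against 20.9%. Members with longer spans lay below or near their class, with 1 of 6 against 35.8% from 100 to 300 kb and 3 of 6 against 47.4% over 300 kb. At 12 h the counts in the same order were 0 of 8 (5.23%), 1 of 10 (7.7%), 3 of 15 (11.3%), 0 of 6 (19.8%) and 1 of 6 (32.3%), with the share of all genes in parentheses.

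**Figure D1:**
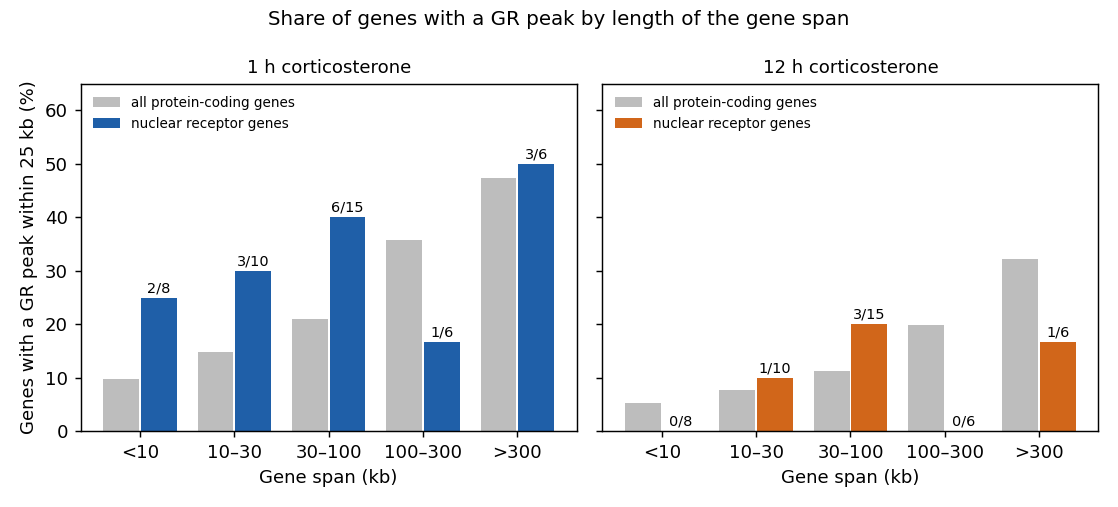
Percent of genes with a GR peak in the span or within 25 kb, by length of the gene span, for all protein-coding genes (grey) and the 45 nuclear receptor genes (coloured, with counts above the bars) after 1 h and 12 h. The grey bars rise with span length at both times, while the coloured bars rest on 6 to 15 genes each and lie above the grey in the 3 shorter classes at 1 h.

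The 15 genes had 29 sites between them at 1 h, and 5 genes had 13 at 12 h, which made 32 different sites. Of the 32, 23 lay inside a member's span and 9 outside, and at 3 another protein-coding gene lay nearer. The 1 h sites held 9.06 to 118 tags with a median of 23.1, against 18.3 for the whole list. The 12 h sites held 9 to 92.8 with a median of 28.2, against 18. The untreated library held 3 to 26 tags in the 1 h windows (mean 12.9) and 8 to 28 in the 12 h windows (mean 15.4). Over all listed sites these means were 11.4 and 12.3.

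**Figure D2:**
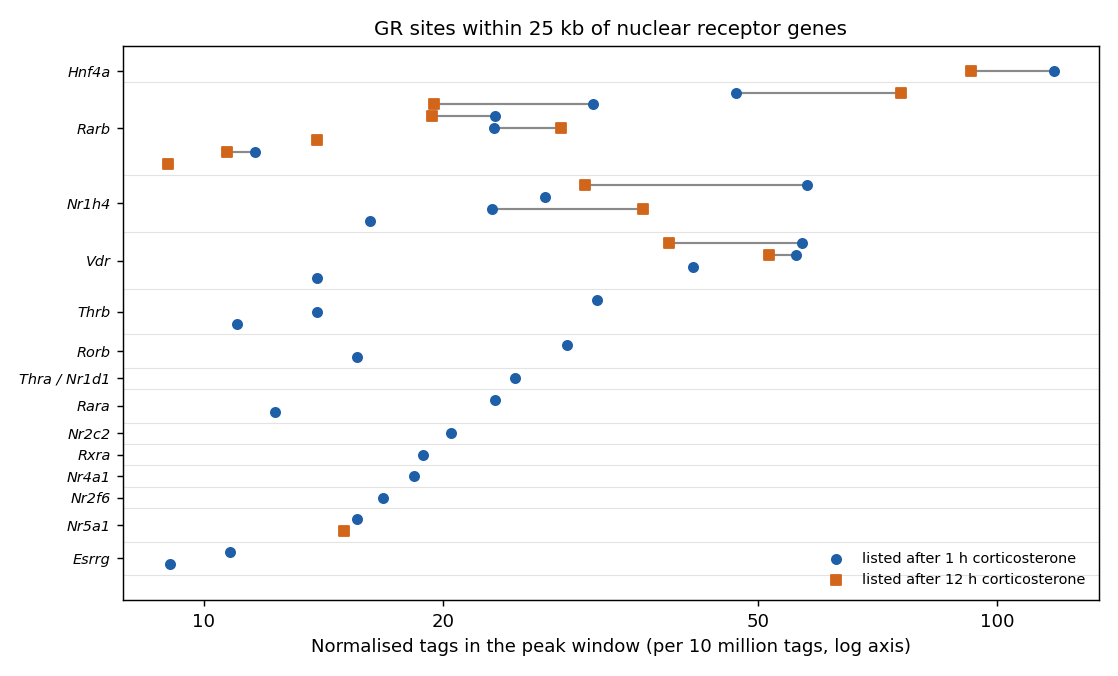
Normalised tags (log axis) at each of the 32 GR sites near a nuclear receptor gene, with circles for 1 h, squares for 12 h and a line joining the values of 1 site. The Hnf4a site is the highest at both times, and the genes from Thrb to Nr2f6 have circles only.

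Sequence could be shown only at the gene starts, and no site of the 32 overlapped a RefSeq promoter window. The member start closest to a GR site was the downstream start of Thrb, the thyroid hormone receptor beta gene, 1.91 kb from a 1 h site. It is shown because it is the one member promoter with a TGTTCT hexamer among the 13 members that had both a 1 h site and an entry in the table. The 250 bases before that start (RefSeq, GRCm38.p6, chr14:17981394-17981643, plus strand) follow, with matches to TGTTCT on either strand in capitals.
Thrb: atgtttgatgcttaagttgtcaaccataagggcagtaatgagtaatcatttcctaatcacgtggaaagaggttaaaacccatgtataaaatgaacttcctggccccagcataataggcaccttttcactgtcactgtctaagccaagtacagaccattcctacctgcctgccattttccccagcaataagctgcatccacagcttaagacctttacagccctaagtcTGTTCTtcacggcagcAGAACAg

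The pair of matches spans bases 228 to 233 on the plus strand and 244 to 249 on the minus strand, counted from 1 at the 5′ end. With TGTTCT on the left and AGAACA on the right, their order is the reverse of that in the consensus element below. TGTTCT occurred in 16.1% of 32851 such windows and in 4 of 63 member windows (6.35%), from Esrrb, Nr5a2 and Thrb. The consensus glucocorticoid response element, an inverted repeat whose right arm overlaps that hexamer, occurred in 0.387% of all windows and in 0 of 63 member windows. AGGTCA occurred in 14% of all windows and in 11 member windows (17.5%), from 10 of the 42 members in the table: Nr0b1, Nr1d2, Nr1h4, Nr5a2, Nr6a1, Pparg, Rarg, Rxra, Rxrg and Thrb. All motifs were searched on both strands, and a match describes letters, not binding.

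Retinoic acid receptor beta had the most sites of the family. Rarb, whose product binds retinoic acid and is a classic target of its own ligand, spans 651 kb on chromosome 14 (16430839 to 17082331) and held 5 sites at 1 h and 7 at 12 h, all inside the span. Of the 557 genes longer than 300 kb, 30 (5.39%) held as many sites or more at 1 h, Rarb included, and 2 did at 12 h, Rarb and Csmd3. Among all protein-coding genes 4 held at least 7 sites at 12 h, the others being Tns1 and Zbtb16. These were named after their values were seen. Of 1033 genes with 2 or more sites at 1 h, 23 (2.23%) had more sites at 12 h and 831 (80.4%) had fewer. Rarb was the 1 of the 7 such members with more, and the other 6 had fewer.

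All 5 of the 1 h sites of Rarb were listed again at 12 h, and they moved in different directions. The strongest (chr14:16663517-16663799 at 1 h) held 46.9 tags at 1 h and 75.7 at 12 h, a log2 ratio of 12 h over 1 h of 0.69 (95% counting interval 0.52 to 0.87). Of all 2436 shared sites, 96.6% had a lower ratio. The site at 16721371 held 30.9 and 19.5 tags (-0.66, -0.94 to -0.39), so the intervals of these neighbours in the same gene lay on opposite sides of 0. Only about 5 kb away, the site at 16726584 held 23.2 and 28.2 tags (0.28, 0.02 to 0.55), with window centres 76 bp apart. The sites at 16483597 (23.3 and 19.4 tags) and 16957952 (11.6 and 10.7 tags, centres 101 bp apart) had intervals that included 0.

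A further pair of Rarb sites appeared in the 12 h list alone, at 16433291 with 13.9 tags and at 16469528 with 9. Their folds over the untreated library were 7.35 and 6.48, where the minimum was 6. At 1 h, up to 11.4 and 8.33 tags in those windows would have left them unlisted for that fold, so absence from the 1 h list sets only a loose limit. The 7 sites covered 525 kb from first to last. The Rarb start in the promoter table lay 88.2 to 383 kb from these sites.

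**Figure D3:**
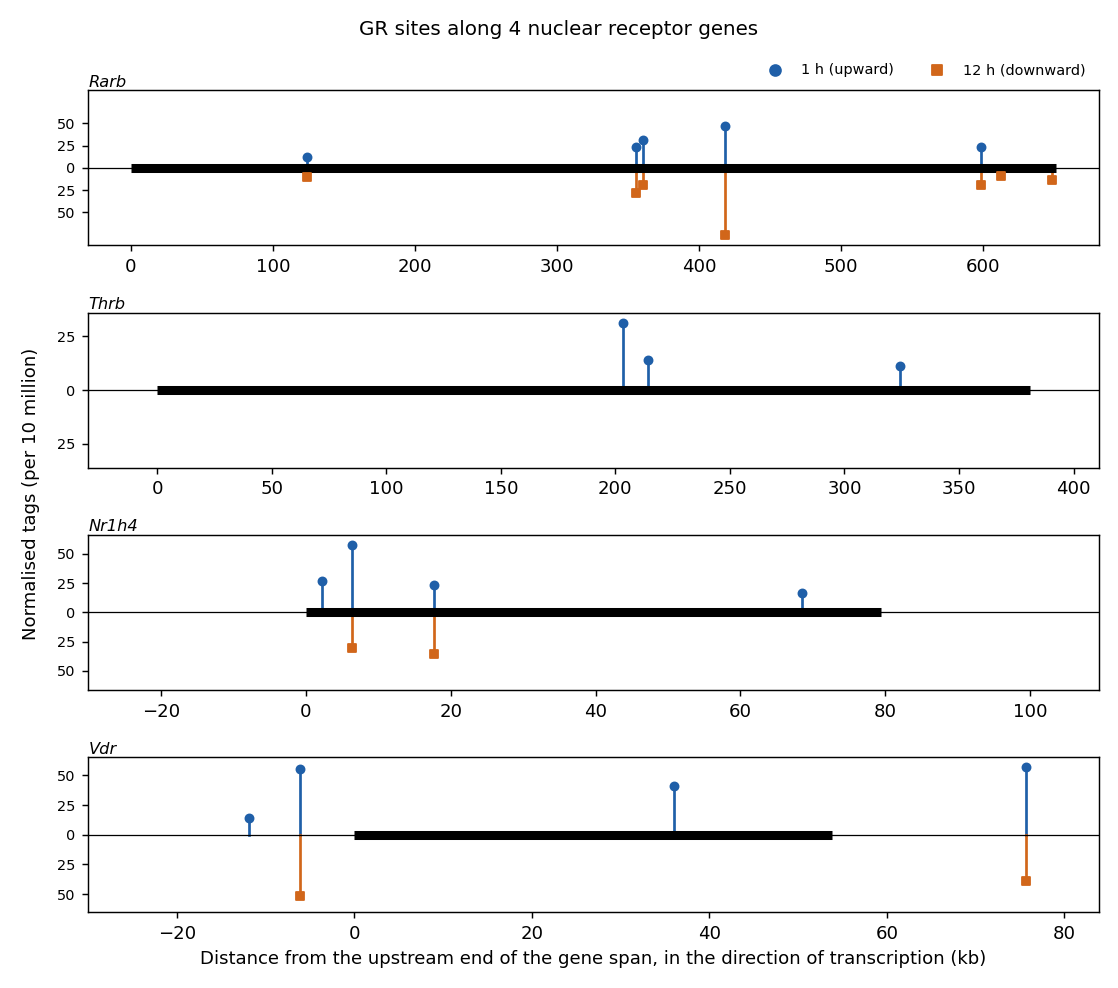
GR sites along Rarb, Thrb, Nr1h4 and Vdr, with distance from the upstream end of the gene span in kb (thick bar: the span) and normalised tags at 1 h drawn upward and at 12 h downward. Rarb has 7 downward lines against 5 upward, Thrb has 3 upward lines and none downward.

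Of the other 5 retinoid receptor genes, Rara and Rxra had sites, at 1 h alone. With Rarb, 3 of 6 retinoid receptor genes had a site at 1 h and 1 at 12 h, against 22.4% and 13.2% of all genes when weighted to their span lengths. Rara, the retinoic acid receptor alpha gene (chromosome 11, 98927800 to 98974942), held 23.3 tags at 98931654 and 12.3 at 98955931, at 5.9 and 8.8 kb from its nearest start. The untreated library held 5 and 3 tags there, and the folds over it were 36.9 and 32.4, the highest of the sites listed only at 1 h. With so little background, 3.79 and 2.27 tags at 12 h would have been 6-fold over the untreated library. The general tag threshold of 75 corresponds to 7.67 normalised tags in that library. Over their surroundings at 1 h the Rara sites stood 14.8-fold and 8.04-fold, and by the caller's score they ranked 2075 and 4276 of 5638. Rxra, which encodes the common partner of many of these receptors, held 18.9 tags at 27758448 inside its span. Rarg, Rxrb and Rxrg had no site within 25 kb.

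All 3 thyroid hormone and vitamin D receptor genes carried a 1 h site, against 27.7% of all genes when weighted to their span lengths, and 1 of 3 did at 12 h, against 17.1%. Thrb (chromosome 14, 17659225 to 18040097) held 31.3 tags at 17862317, 13.9 at 17873229 and 11 at 17983410, the last next to the start shown above. None of the 3 was listed at 12 h, when 10.6, 6.82 and 4.55 tags would have met the required fold over the untreated library. Of these, 6.82 and 4.55 lie below the 7.67 tags of the general threshold, and the fold over the local region was a further condition. Thrb lies 577 kb from Rarb, so that on this stretch of chromosome 14 one receptor gene kept all its listed sites and its neighbour kept none. The caller's scores at 1 h were 283, 132 and 102 for the Thrb sites and 105 to 431 for those of Rarb. Of all 1 h peaks, 19.6% with a score under 150, 44.3% from 150 to 300 and 84.4% at 300 or more were listed at 12 h. Nr1d2, 164 kb beyond Thrb, had no site within 25 kb at either time.

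Thra and Nr1d1 shared 1 site. Thra encodes thyroid hormone receptor alpha, and Nr1d1 encodes REV-ERBα, a heme-binding repressor of the circadian clock. Their spans on chromosome 11 overlap by 1.07 kb. The site (chr11:98754289-98754571) lay inside Thra and 13.5 kb from Nr1d1, held 24.7 tags at 1 h, and was not in the 12 h list, where 12.1 tags would have met the fold. It stood 18.1-fold over its surroundings at 1 h, the highest local fold of the sites listed only at 1 h, against a minimum of 6. Rara lies 152 kb from Nr1d1, and none of the 3 neighbouring receptor genes had a site at 12 h.

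Vdr, the vitamin D receptor gene (chromosome 15, 97854427 to 97908296), carried 4 sites at 1 h and 2 at 12 h. The site 6.18 kb upstream of its start (97914332) held 55.7 and 51.6 tags, a log2 ratio of -0.11 (-0.29 to 0.07), an interval that included 0. Per base of the window, which was wider at 12 h, the ratio was -0.21. Scaled to an equal median of all shared sites, it was 0.38. A site inside the gene at 97872184 held 41.3 tags at 1 h, was the strongest member site missing at 12 h, and would have needed 16.7 tags for the fold. The site at 97832513 held 56.8 and 38.6 tags (-0.56, -0.75 to -0.36). That site lay 21.8 kb from Vdr and inside Hdac7, 0.887 kb from a start of that histone deacetylase gene, and its window centres were 111 bp apart between the lists. A weak site at 97920001 held 13.9 tags at 1 h alone.

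Among the lipid, bile acid and xenobiotic sensor genes, Nr1h4 was the 1 of 8 with a site, at either time. This share of 12.5% compares with a length-weighted 19.2% of all genes at 1 h and 10.4% at 12 h. Nr1h4 encodes FXR, the bile acid receptor known from liver and intestine, and spans 79.4 kb of chromosome 10 (89454234 to 89533645). It held 4 sites at 1 h and 2 at 12 h, all inside the span. The strongest 1 h site (89527115) held 57.6 and 30.2 tags, a log2 ratio of -0.93 (-1.14 to -0.72), while the site at 89515827 held 23.1 and 35.8 tags (0.63, 0.38 to 0.89). The order of these sites was thus exchanged between the libraries, and 96% of all shared sites had a lower ratio than the second.

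The remaining Nr1h4 sites, at 89531260 with 26.9 tags and at 89465074 with 16.2, were listed at 1 h alone, with local folds of 6.21 and 7.27, close to the minimum of 6. The untreated library held 15 to 26 tags at the 4 sites, above the mean of 11.4 for all 1 h windows. Nr1h2 and Nr1h3 (the oxysterol receptors LXRβ and LXRα), Nr1i2 and Nr1i3 (the xenobiotic receptors PXR and CAR) and Ppara, Ppard and Pparg (fatty acid receptors) had no site within 25 kb.

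Hnf4a, the gene of a receptor that controls liver and gut epithelial genes, was credited with the highest member site. It held 118 tags at 1 h and 92.8 at 12 h (chr2:163596046-163596328), ranked 158 of 5638 and 111 of 2883 by the caller's score. The log2 ratio was -0.34 (-0.47 to -0.21), above 58.2% of all shared sites. The site lay 23.3 kb outside Hnf4a and 6.1 kb from Ttpal, so Ttpal was the nearer gene. Hnf4g had no site, so 1 of the 2 HNF4 genes had one at each time, against a length-weighted 28.3% and 15.5% of all genes.

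**Figure D4:**
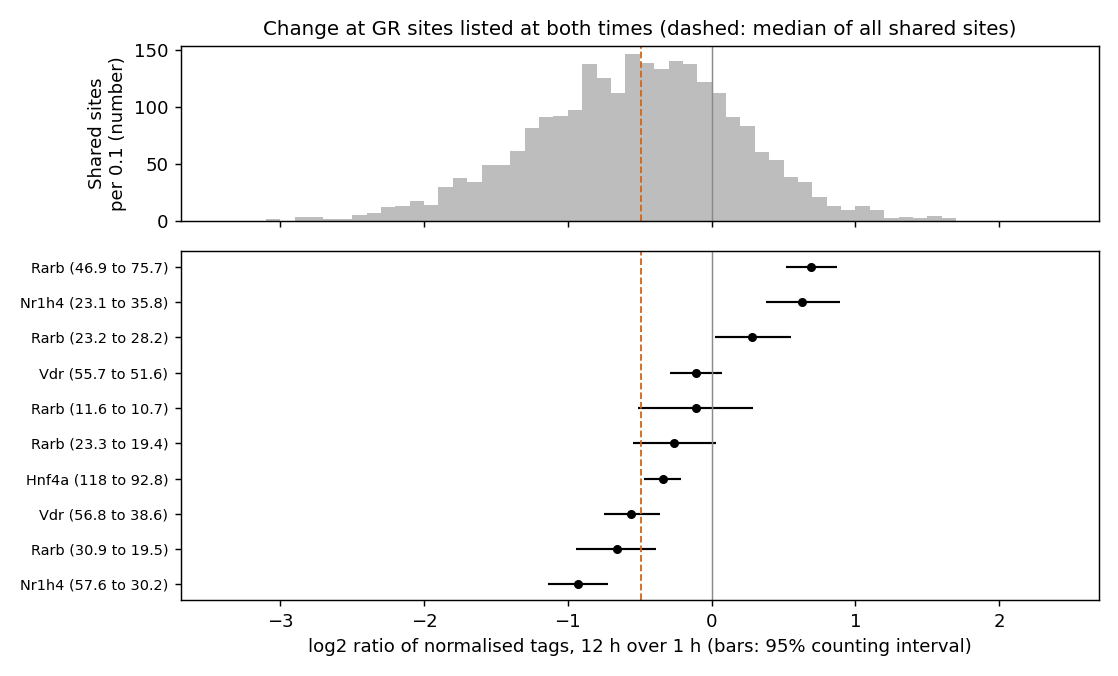
Log2 ratio of normalised tags, 12 h over 1 h, for all 2436 shared GR sites (top, number per bin) and for the 10 shared sites near nuclear receptor genes (bottom, with 1 h and 12 h tags in the labels and bars for the 95% counting interval). The dashed line is the median of all shared sites, and 3 of the 10 sites lie to the right of 0 with their whole interval.

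Of the 4 clock receptor genes, 2 had a site at 1 h, against a length-weighted 28.5% of all genes, and 0 at 12 h, against 17.2%. Rorb had 2 sites of its own, while Nr1d1 had the one shared with Thra. Rorb encodes a retinoid-related orphan receptor of the nervous system. It held 28.7 tags inside its span at 18969364 (chromosome 19) and 15.6 at 19118112, 7.06 kb outside, both at 1 h alone. Rora and Nr1d2 had none within 25 kb.

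Nr4a1, an immediate early gene that encodes NUR77, was the 1 of 3 NR4A genes with a site at 1 h, against a length-weighted 16.8% of all genes. At 12 h 0 of 3 had one, against 8.89%. The site (chr15:101252592-101252874) lay 1.17 kb outside the span and 14.1 kb from the start in the promoter table, and held 18.4 tags at 1 h. The fold over the untreated library was 24.3, and 4.55 tags would have met that condition at 12 h, when the site was not listed. That value is under the 7.67 tags of the general threshold at 12 h. Nr4a2 and Nr4a3 had no site.

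Of the 7 NR2 orphan receptor genes 2 had a site at 1 h (28.6%), against 15.1% of all genes when weighted to their span lengths, and 0 at 12 h, against 8.02%. Nr2c2, the gene of the testicular receptor TR4, held 20.5 tags inside its span at 92102504 (chromosome 6). Nr2f6, a COUP-TF-related gene, was credited with 16.8 tags at 71405081 (chromosome 8), 23.3 kb away and only 0.45 kb from Babam1. Esrrg, the oestrogen-related receptor gamma gene, has a span of 606 kb and held 10.8 and 9.06 tags at its 2 sites, both under the 1 h list's median of 18.3. Each of these was in the 1 h list alone. Esrrg was the 1 of 3 oestrogen-related receptor genes with a site at 1 h, against a length-weighted 32.6% of all genes. At 12 h 0 of 3 had one, against 19.9%.

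Nr5a1, the gene of the steroidogenic factor SF-1, had 1 site at each time, but they were different sites. It was the 1 of 5 NR5, NR6 and NR0 genes with a site. All genes, length-weighted, gave 21.2% at 1 h and 11.5% at 12 h. The 1 h site (38677188 on chromosome 2) held 15.6 tags and lay 15.3 kb outside the span, while the 12 h site (38682177) held 15 tags at 10.3 kb. Their centres were 5.0 kb apart. The fold over the untreated library was 7.25 and 7.94, near the minimum of 6. At the other time, 12.9 and 11.4 tags in those windows would have met that fold, so the single listings need not be a loss or gain of binding.

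The other steroid receptor genes had no site at either time. These were Nr3c2 (the mineralocorticoid receptor, which also binds corticosterone), Esr1, Esr2 and Pgr, with 0 of 4 at both times, against 34.1% and 21.8% of all genes when weighted to their span lengths. With 4 genes this is a description only. Nr2c1, Nr2e1, Nr2e3, Nr2f1, Esrra, Esrrb, Nr0b1 and Nr0b2 also had none.

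Of the 30 members without a site within 25 kb, 24 had none within 100 kb either. The other 6 were Nr2f2, Nr5a2, Nr6a1, Pparg, Rarg and Rora. Nr5a2, the gene of LRH-1, had a site 60.3 kb away at 137020561 (chromosome 1), nearest to Nr5a2 itself, with 19 tags at 1 h and 31.3 at 12 h. Pparg, the master regulator gene of fat cells, had 12.9 tags at 1 h alone at 43.8 kb, nearer to Syn2. It also had 21.5 and 12.4 tags at 90.8 kb, inside Syn2. Rora had 29.8 and 26.2 tags at 70.8 kb, inside Anxa2, and Nr2f2 had 16.8 at 84.7 kb at 1 h alone. The nearest sites of Nr6a1 were those of its neighbour Nr5a1. Rarg had 18.6 tags at 29.8 kb at 1 h alone, inside Zfp740.

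For the Rarg site at 29.8 kb and the Pparg site at 43.8 kb, part of the bound stretch is covered by promoter windows of other genes, which allows it to be shown. The Rarg site shared 239 bases (chr15:102205053-102205291, minus strand) with the window of 250 bases before a start of Csad. The Pparg site shared 101 bases (chr6:115317089-115317189, minus strand) with the window before a start of Gm38877. Both are from RefSeq, GRCm38.p6, and only the shared bases are shown. None of the 3 motifs searched matched in these stretches, so they have no capitals.
Rarg site: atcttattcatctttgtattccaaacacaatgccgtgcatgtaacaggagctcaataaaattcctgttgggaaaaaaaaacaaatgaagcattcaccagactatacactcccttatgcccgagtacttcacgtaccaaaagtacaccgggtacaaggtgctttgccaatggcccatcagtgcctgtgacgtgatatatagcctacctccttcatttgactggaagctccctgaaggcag
Pparg site: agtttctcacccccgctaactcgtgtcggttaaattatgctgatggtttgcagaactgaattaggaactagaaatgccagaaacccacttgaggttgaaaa

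Across the family, 10 of the 29 member sites at 1 h were listed again at 12 h (34.5%, Wilson interval 19.9 to 52.7%), against 43.2% of all 1 h peaks. In reverse, 10 of 13 member sites at 12 h had been listed at 1 h (76.9%, 49.7 to 91.8%), against 84.5% of all. The members' shares therefore lay below the whole lists' but with intervals that included them. Retention went with the caller's score. Of member sites with a score under 150, 1 of 10 was listed at 12 h (19.6% of all such 1 h peaks), of those from 150 to 300, 4 of 13 (44.3%), and of those at 300 or more, 5 of 6 (84.4%). The exception in the last class was the site inside Vdr.

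The 10 retained sites had a median log2 ratio of -0.19, against -0.49 for all 2436 shared sites. Of the 10, 3 were higher at 12 h and 7 lower, against 22.8% higher and 77.2% lower of all shared sites. The counting interval lay above 0 at 3 of the 10 (2 in Rarb, 1 in Nr1h4), against 11.5% of all shared sites. It lay below 0 at 4 (Hnf4a, and 1 each in Rarb, Nr1h4 and Vdr) and included 0 at 3. Per base of the window, which was wider at 12 h, every log2 ratio shifted by -0.10. This is more than the 0.02 by which the interval of the Rarb site at 16726584 cleared 0. It also exceeds the upper bounds at Rarb 16483597 (0.03) and Vdr 97914332 (0.07), whose intervals included 0. Rarb alone contributed 5 of the 10 sites. When the 12 h library was scaled so that the median of all shared sites was 0, every ratio moved up by 0.49 and the members' median became 0.31. Of the 10 sites, 7 were then higher at 12 h and 3 lower, as 4 changed sign: Hnf4a (0.15), the Rarb sites at 16483597 (0.23) and 16957952 (0.38), and the Vdr site at 97914332 (0.38).

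Coregulators are the proteins through which nuclear receptors activate or repress transcription. Of 27 coregulator genes, 5 had a site at 1 h (18.5%). Weighted to their span lengths, all genes gave 27.4%. Tbl1xr1, which encodes a corepressor subunit, held 57.3 tags at 1 h alone, 1.58 kb from its start. The coactivator gene Ncoa2 held 18.3, the histone methyltransferase gene Nsd1 16.3, and Ppargc1a, which encodes the coactivator PGC-1α, 12.4 and 10.9, each at 1 h alone. The Nsd1 site lay 19.2 kb outside that gene. The stronger Ppargc1a site lay 22.3 kb outside Ppargc1a and nearer to Dhx15, at 12 kb.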

How the data were processed

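GR ChIP-seq peak lists of 3 libraries were used. Per the submitters' processing notes, the tools were HOMER, Bowtie2 2.2.6 and bcl2fastq 2.17, and the build was mm10. Per the file headers, peaks were called per library with findPeaks (factor style) at a false discovery rate of 0.001, a tag threshold of 75, and 6-fold over the control and over the local 10 kb. Windows were 282 bp wide at 1 h and 302 bp at 12 h. The control was the untreated library for both treated lists and the input for the untreated list.

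The deposited signal is the tag count per 10000000 tags. The authors gave treated tags at the size of the untreated library. Returned to their own library size, 100% came within 0.1 of a whole tag. Control tags are unscaled, with 0.5 in place of 0. The deposited tag count of the untreated peak, the deposited focus ratio (a fraction) and the deposited p-values were not used. The deposited score and the deposited fold ratios over control and local region are the authors' values and served only to describe or filter peaks within a list.

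Peaks were assigned by their centre to RefSeq gene spans (GRCm38.p6, chromosomes 1 to 19 and X) and paired between lists by an overlap of at least 1 bp. Ratios carry exact binomial 95% intervals from whole tags, which cover counting error only, as PCR copies were not marked by molecular identifiers. Tags that would have met the fold at the other time were taken from the control tags of the listed window. The comparison with randomly drawn genes of matched length was replaced by shares over 5 classes of span length. Of the members, 42 have a start in the promoter table, and Thra, Nr5a1 and Hnf4g have none. Peak sequences, exons and introns were not used here. Every member with a site was named, and the others by the distance of a peak within 100 kb. One coregulator gene that this rule selects is not reported here. The members, lists and alternatives were chosen with earlier results of these data known. Assignment and intervals were tested on simulated data. Scripts used Python 3.11.15, pandas 2.3.3, numpy 2.4.6 and scipy 1.17.1.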

Additional observations from a re-analysis of the deposited data

How the results depend on the processing

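The 1 h count of 15 members was 10 to 12 with the gene span alone, 10 kb, the nearest gene only, a fold of at least 12, doubled minimums of score and both folds, or as many leading 1 h peaks as the 12 h list holds, and 21 within 100 kb. Against these, 7.63 to 11.8% and 37.9% of all genes had a peak. The 12 h count of 5, and equally the count at both times, became 2 with the span alone, 3 within 10 kb, 3 at a fold of at least 12, 3 with doubled minimums and 12 within 100 kb. At 12 h, 4.06, 6.24, 5.51, 3.73 and 22.6% of all genes had a peak under these settings, against 4.44, 6.67, 6.67, 6.67 and 26.7% of members. At both times, 3.81, 5.8, 5.19, 3.49 and 21.3% of all genes did. With the nearest gene only, both counts were 4 (8.89%), against 6.49% of all genes at 12 h and 6.01% at both times. With equal list lengths, 4 members had a site at both times, against 7.01% of all genes. Within 25 kb of a transcription start the counts were 9 of 42 at 1 h (10.7% of all genes) and 2 at 12 h (5.5%). That setting and the equal list lengths were chosen after seeing the data. Pairing by centres within 100 bp left 8 of 10 shared member sites. The median log2 ratio of -0.19 was -0.28 per base of the window, -0.19 by centres and -0.30 within 100 kb. Scaling to an equal median of all shared sites reversed it to 0.31, and 4 of the 10 site ratios changed sign, of which Hnf4a (0.15) had an interval that excluded 0 before scaling. No paired analysis was possible because each condition has 1 library. Depth limits the weakest sites, such as those of Esrrg, which rest on 82 and 98 raw tags.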

Other observations

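Some members with a site of their own also had sites further out, between 25 and 100 kb from the span. Vdr had a site 30.5 kb upstream with 67.1 tags at 1 h and 18.7 at 12 h, more at 1 h than any site within 25 kb of the gene. Nr4a1 had a site 45.9 kb away with 70.8 and 15.2 tags, against 18.4 at its nearer site. Hnf4a had one 70 kb away, inside Serinc3, with 83.8 and 41.3 tags. Rorb had one 40 kb away, inside Trpm6, with 27.4 and 19.6 tags. Rxra had one 77.2 kb away with 25.7 tags at 1 h and 31.4 at 12 h, so that this gene, listed as bound at 1 h alone within 25 kb, had a site at both times in the wider window. At each of these 5 sites, all listed at both times, another protein-coding gene lay nearer than the member. Further sites of Nr2f6, Vdr and Rxra were in a single list. One of them, 69.7 kb from Rxra with 13.9 tags at 1 h alone, had Rxra as its nearest gene.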
